A study of Rattus norvegicus with 8 samples.

Results

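Genes of the NADPH oxidase of phagocytes, and the related oxidase gene Nox4, were followed in full-thickness rat skin. The genes are Cybb, Cyba, Ncf1, Ncf4, Rac2 and Nox4, chosen by name and found on the array by the RefSeq accession of each probe. All 6 genes were found, each with 1 probe and 1 spot, among 13903 named genes and 24684 probes in all. The STZ group were male Sprague-Dawley rats injected intraperitoneally at 4 weeks of age with 60 mg/kg streptozotocin (STZ), which kills pancreatic beta cells and is used to induce diabetes. The sham group were rats of the same sex, strain and age given sodium citrate solution. Skin of both groups was taken 4 weeks later, at 8 weeks of age, and its RNA was read on 1-colour Agilent arrays. A wound is also mentioned in the labels, which leave unclear if the skin on the arrays was wounded, and blood glucose is not reported in them.

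The oxidase moves electrons from NADPH across a membrane to oxygen and so makes superoxide, the source of the respiratory burst with which neutrophils and macrophages attack microbes. Cybb (gp91phox, also called Nox2) carries the electrons, and Cyba (p22phox) is its partner in the membrane and also that of Nox4. Ncf1 (p47phox) and Ncf4 (p40phox) wait in the cytosol and join the membrane pair upon activation, together with the small GTPase Rac2. Nox4 needs no cytosolic subunits, makes mainly hydrogen peroxide and is known from fibroblasts, smooth muscle and endothelium rather than from phagocytes. Inherited loss of the phagocyte subunits causes chronic granulomatous disease in humans.

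The labels list 4 STZ and 4 sham samples, but replicates 1 and 3 of a group, and replicates 2 and 4, were 2 scans of the same array. Spot-by-spot deviations correlated at 0.978 to 0.991 within these pairs and at 0.699 or less between all others. The scans were averaged, which left 2 STZ and 2 sham arrays (n = 2 per group), and the labels do not say if rats were pooled on an array. A p-value therefore measures only the spread between these arrays. The 75th percentile, in intensity units, was 606 to 624 on the array of STZ replicates 2 and 4, 1481 to 1496 on that of STZ replicates 1 and 3, and 1138 to 1336 on the sham arrays. No spot was saturated. The keratinocyte genes Krt14, Krt1 and Ivl, which mark epidermis, were well above background in every sample. Levels below are log2 intensities over the array's 75th percentile, so that 0 is the 75th percentile, and an increase of 1 is a doubling. The median probe stood 0.23 higher in STZ on this scale, and changes (STZ minus sham) are given relative to that median.

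All 5 genes of the phagocyte enzyme were higher on both STZ arrays than on either sham array, with fitted folds of 3.75 (Cyba) to 10.6 (Cybb), while Nox4 overlapped between the groups. Among all 21529 tested probes, 26.8% had every STZ array above every sham array and 17.8% every STZ array below. The 5 changes were all above 1 on the log2 scale, as were 15.5% of tested probes, while 9.22% were below −1. No gene of the 6 passed an adjusted p of 0.05 in limma, and neither did any other probe (0%). At an unadjusted p under 0.05, 1575 probes were higher in STZ (7.32%) and 761 lower (3.53%), and the 5 phagocyte genes were among the higher ones. The split of these calls depended on the scaling, at 1233 higher and 1152 lower after quantile normalization and 1154 higher and 1346 lower after normexp with quantile normalization. All 6 genes were well above background in all 8 samples, so none entered the test through the brighter group alone. In bulk tissue, more cells of a type and more RNA per cell cannot be told apart.

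**Figure D1:**
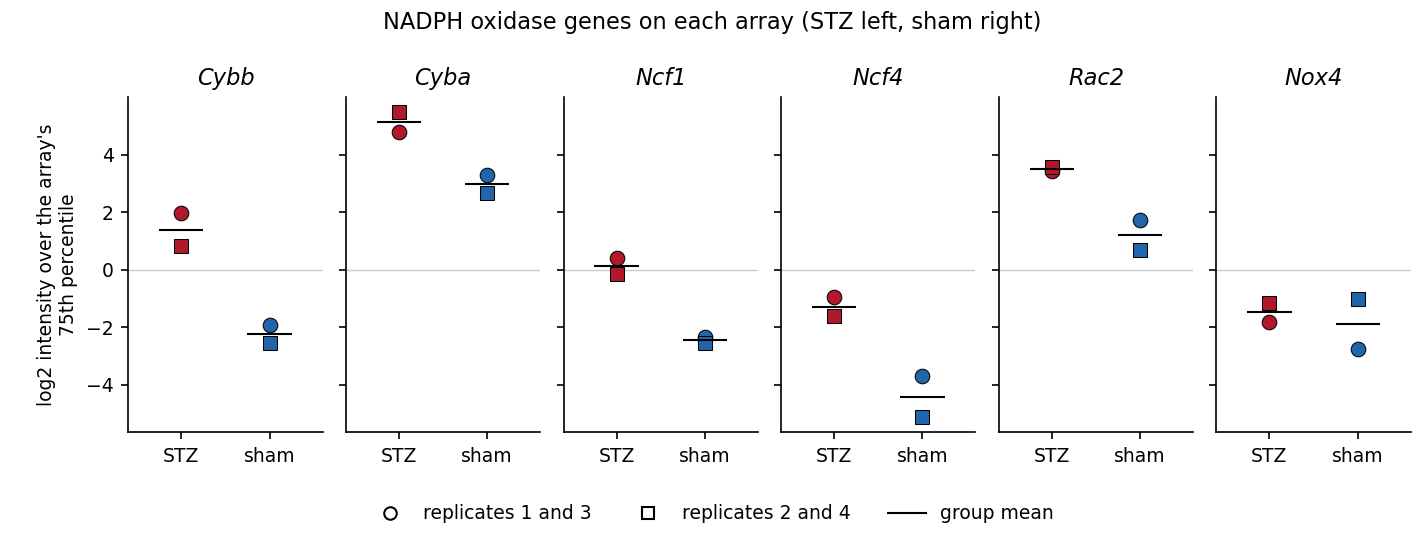
Level (y axis, log2 intensity minus the 75th percentile of the array) of the 6 oxidase genes on each array, STZ left of sham in each panel; circles are the arrays of replicates 1 and 3, squares those of replicates 2 and 4, and bars are group means (n = 2). Cybb sits at 1.97 and 0.81 on the STZ arrays against −1.94 and −2.55 on the sham arrays, whereas for Nox4 the 2 STZ arrays lie between the 2 sham arrays.

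Of the membrane pair, Cybb, the electron-carrying subunit, stood furthest apart. Its level was 1.97 and 0.81 on the STZ arrays of replicates 1 and 3 and of replicates 2 and 4, against −1.94 and −2.55 on the corresponding sham arrays. Both STZ arrays lay far above both sham arrays, and the STZ array of replicates 1 and 3 was the highest of the 4. Before scaling, the processed signal of the Cybb spot was 1071 to 5886 in the STZ samples and 224 to 311 in the sham samples. The log2 change was 3.40 ± 0.58 (SE), a 10.6-fold higher mean in STZ, with a 95% interval of 1.90 to 4.90 (limma, unadjusted p = 0.00157, adjusted p = 0.152). The change exceeded that of 98.9% of tested probes.

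Cyba, the p22phox partner that steadies gp91phox in the membrane, was at 4.77 and 5.47 on the STZ arrays, against 3.31 and 2.66 on the sham arrays. The groups did not overlap, and here the STZ array of replicates 2 and 4 was the higher one. The log2 change was 1.91 ± 0.51, or 3.75-fold, with a 95% interval of 0.60 to 3.22 (limma, unadjusted p = 0.00860, adjusted p = 0.246). It exceeded 94.8% of tested probes.

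Of the cytosolic subunits, Ncf1, the organiser p47phox whose phosphorylation starts assembly, was at 0.42 and −0.15 on the STZ arrays and at −2.36 and −2.57 on the sham arrays. The 2 arrays of each group lay close together, and the gap between the groups was several times the spread within them (SD 0.40 in STZ and 0.14 in sham). The log2 change was 2.37 ± 0.45, or 5.18-fold (limma, unadjusted p = 0.00227, adjusted p = 0.170). Ncf4, the p40phox subunit that binds a lipid of phagosome membranes, had a median spot signal of 13.3 to 39.8 times the local background in STZ skin and 3.0 to 6.38 times in sham skin. Its level was −0.95 and −1.63 on the STZ arrays, against −3.71 and −5.12 on the sham arrays. The groups did not overlap, and the 2 sham arrays differed by more than the 2 STZ arrays. The log2 change was 2.89 ± 0.64, or 7.44-fold (limma, unadjusted p = 0.00468, adjusted p = 0.202). After normexp background correction with quantile normalization it was 1.99.

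Rac2, the GTPase of blood cells that completes the assembled enzyme, was at 3.42 and 3.56 on the STZ arrays and at 1.73 and 0.67 on the sham arrays. The STZ arrays were nearly alike, and the sham array of replicates 2 and 4 was the lowest of the 4. The log2 change was 2.06 ± 0.53, or 4.18-fold (limma, unadjusted p = 0.00767, adjusted p = 0.231). Rac1, the GTPase of the same family that nearly all cells make, was at 4.04 and 3.57 on the STZ arrays and at 3.07 and 3.12 on the sham arrays. Its log2 change was 0.48 ± 0.44, with a 95% interval of −0.64 to 1.61 (limma, unadjusted p = 0.165, adjusted p = 0.612). Probe sequences were not used here, so cross-hybridisation between the Rac genes was not tested.

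Nox4, the oxidase that works without cytosolic subunits, was at −1.82 and −1.15 on the STZ arrays, against −2.76 and −1.03 on the sham arrays. Both STZ arrays lay between the 2 sham arrays, and the SD was 0.47 in STZ and 1.22 in sham. The log2 change was 0.19 ± 0.72, with a 95% interval of −1.65 to 2.03 (limma, unadjusted p = 0.586, adjusted p = 0.838). Neither a rise of the size seen for the phagocyte subunit Cyba nor a fall of 1 lies outside this interval. Without the sham array of replicates 1 and 3 the change was −0.65, and without that of replicates 2 and 4 it was 1.03. Within arrays, the change of each phagocyte gene exceeded that of Nox4, by 1.72 (Cyba) to 3.21 (Cybb) on the log2 scale. STZ and sham arrays did not overlap in any of the 5 comparisons. All 5 subtract the same Nox4 probe, so they are not separate comparisons. The share of all tested probes without overlap after this subtraction was not computed. With 2 arrays against 2, the exact permutation test cannot go below p = 0.333, which all 5 comparisons had (two-sided). That value also stands after Benjamini-Hochberg adjustment over the 5.

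**Figure D2:**
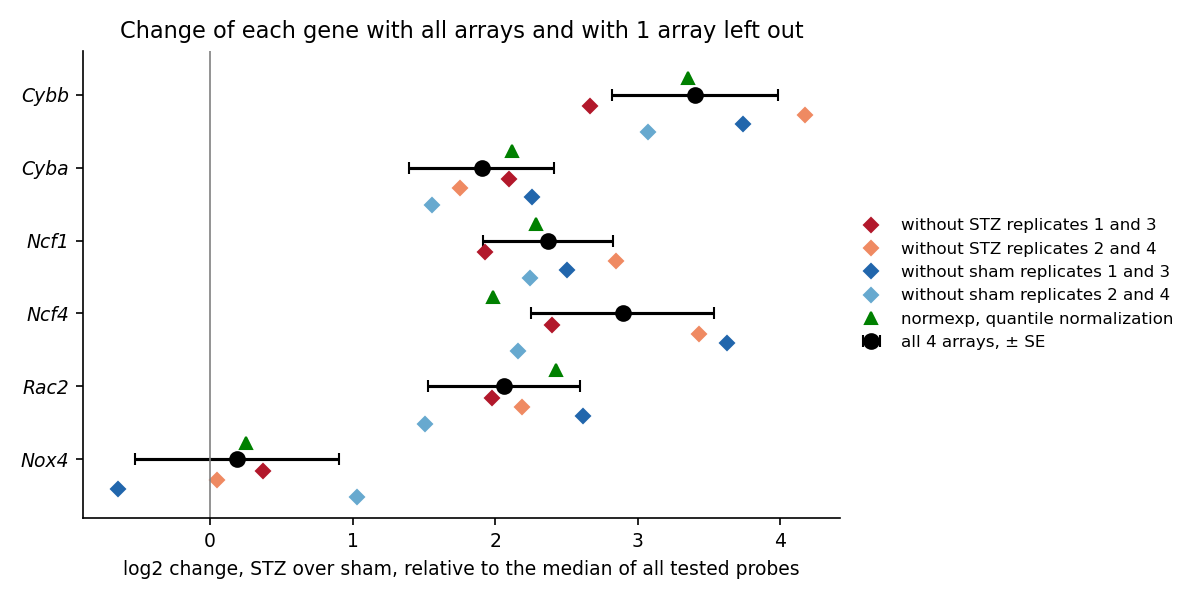
Log2 change of each gene, STZ over sham, with the median tested probe at 0 (x axis); black circles are the values from all 4 arrays with their SE, diamonds the values with 1 array left out, and triangles those after normexp correction with quantile normalization. The 5 phagocyte genes stay at 1.51 or above in every one of these settings, while Nox4 runs from −0.65 to 1.03.

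With each array left out in turn, the change was 2.67 to 4.18 for Cybb, 1.56 to 2.26 for Cyba, 1.93 to 2.85 for Ncf1, 2.16 to 3.63 for Ncf4 and 1.51 to 2.62 for Rac2. Cybb was lowest without the STZ array of replicates 1 and 3, which carried its highest value. Cyba and Rac2 missed an unadjusted p of 0.05 without the sham array of replicates 2 and 4 (limma, unadjusted p = 0.0723 and 0.0650), and no other omission did this to any of the 5. In these fits the lone array of a group is assumed to vary like the arrays of the other group.

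The arrays of 1 group did not order the genes alike. Within STZ, Cybb, Ncf1 and Ncf4 were higher on the array of replicates 1 and 3, while Cyba and Rac2 were higher on that of replicates 2 and 4. Within sham, all 5 phagocyte genes were higher on the array of replicates 1 and 3, and Nox4 on that of replicates 2 and 4. With each gene's own mean over the 4 arrays subtracted, the most alike pair of the 6 was Cyba and Rac2, at a Euclidean distance of 0.51 on the log2 scale, followed by Cybb and Ncf4 at 0.83. Nox4 was 2.40 (Cyba) to 3.84 (Cybb) from the others. These distances rest on 4 arrays and are descriptions only.

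By the same measure among 12615 named genes, the 5 nearest to Cybb were Tlr2, Vnn3, Ccl20, Napsa and Cxcl10, at distances of 0.29 to 0.43. Tlr2, a receptor for bacterial lipoproteins, was at 1.84 and 0.62 on the STZ arrays and at −1.91 and −2.93 on the sham arrays, in the same order of arrays as Cybb. Cxcl10 is an interferon-induced chemokine, and Ccl20 a chemokine that draws cells with the receptor Ccr6. The log2 changes of these 5 genes were 3.05 to 3.64. The 5 nearest to Nox4 were Vom1r23, Lzts3, Slc26a10, Ssmem1 and Cxcl9, at distances of 0.11 to 0.16 and with log2 changes of 0.10 to 0.29.

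Promoter sequences of 4 of the 6 genes (Cybb, Cyba, Ncf1 and Nox4) were found in a RefSeq table of the rat assembly GRCr8, each running from 250 bases before to 50 bases after the transcript start. They are shown for Cybb and Ncf1, which were higher on both STZ arrays, and for Nox4, whose groups overlapped. Capitals mark matches, on either strand, to GAGGAA, the core recognised by the myeloid factor PU.1. They also mark GAAA followed by any 2 bases and GAAA, an element of interferon regulatory factors. Marked too is TGANTCA, a loose form of the AP-1 element with any base in the middle. No match overlaps another.
Cybb, chrX:16065016-16065315, - strand: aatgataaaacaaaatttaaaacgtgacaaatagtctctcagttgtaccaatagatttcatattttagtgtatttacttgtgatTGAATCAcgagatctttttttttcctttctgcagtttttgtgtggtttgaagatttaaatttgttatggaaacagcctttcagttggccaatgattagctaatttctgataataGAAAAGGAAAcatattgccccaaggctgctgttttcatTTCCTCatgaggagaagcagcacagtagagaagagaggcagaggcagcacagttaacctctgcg
Ncf1, chr12:28121635-28121934, + strand: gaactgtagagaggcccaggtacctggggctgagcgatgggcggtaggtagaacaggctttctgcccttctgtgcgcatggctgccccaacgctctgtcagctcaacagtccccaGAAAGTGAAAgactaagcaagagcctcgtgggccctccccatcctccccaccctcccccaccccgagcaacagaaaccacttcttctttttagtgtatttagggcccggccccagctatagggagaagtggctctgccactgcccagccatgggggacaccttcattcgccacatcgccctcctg
Nox4, chr1:150313639-150313938, + strand: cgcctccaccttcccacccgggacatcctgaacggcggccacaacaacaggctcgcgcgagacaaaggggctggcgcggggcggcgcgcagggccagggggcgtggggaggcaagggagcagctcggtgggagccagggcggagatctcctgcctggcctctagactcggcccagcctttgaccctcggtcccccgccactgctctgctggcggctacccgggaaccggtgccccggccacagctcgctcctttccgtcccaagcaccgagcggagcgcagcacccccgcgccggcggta
The Cybb window held 1 match to each motif, with positions counted from the transcript start. The loose AP-1 form, with A in the middle, ran from −166 to −160. The interferon regulatory element ran from −52 to −43 and the PU.1 core, on the opposite strand, from −14 to −9. The Ncf1 window held the interferon regulatory element from −135 to −126. The windows of Cyba and Nox4 held none of the 3. Of all 33469 promoter windows of this length, 27.6% held the PU.1 core, 3.92% the interferon regulatory element and 7.33% the loose AP-1 form. The GC content was 35.7% in the Cybb window, 59.7% in that of Ncf1, 61% in that of Cyba and 73% in that of Nox4. A match describes letters only, and none of these data measure binding.

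Factors known to act on the Cybb gene in myeloid cells were examined next. Of 9 tested genes in this list, 3 were higher at an unadjusted p under 0.05 and none lower, against 7.32% and 3.53% of all tested probes. The median log2 change was 0.26, against 0 over all tested probes, and no gene passed after adjustment. The median was 0.06 without the STZ array of replicates 1 and 3, 0.59 without that of replicates 2 and 4 and 0.15 without the sham array of replicates 2 and 4. Irf8, a myeloid interferon regulatory factor, was at −2.30 and −2.25 on the STZ arrays and at −4.65 and −4.51 on the sham arrays, a log2 change of 2.08 ± 0.41. Spi1, the gene of PU.1, was at −2.02 and −2.10 on the STZ arrays against −4.02 and −5.06 on the sham arrays, a change of 2.25 ± 0.53. Both genes were well apart between the groups. Irf1, a factor induced by interferon gamma, had a change of 1.18 ± 0.47, and Irf2, its antagonist at shared sites, one of 0.43 ± 0.48. The other 5 tested genes of the list had changes of −0.76 to 0.26.

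Genes that lead from phagocyte receptors to the assembled oxidase were tested in 17 cases. Of these, 10 were higher and none lower at an unadjusted p under 0.05, against 7.32% and 3.53% of all tested probes, with a median log2 change of 1.34. After normexp with quantile normalization, 7 were higher, 1 was lower and the median was 1.08. The median was 0.94 without the sham array of replicates 2 and 4. The lowest change of the list with all arrays was −1.34 ± 0.48, for Pak1, which was not called. Fcgr3a, an activating receptor for antibody-coated particles, was at 1.77 and 1.03 on the STZ arrays and at −2.99 and −3.43 on the sham arrays. The groups were far apart, with a log2 change of 4.38 ± 0.50 (limma, unadjusted p = 0.000241, adjusted p = 0.102). Fcgr1a, the high-affinity antibody receptor, had a change of 3.0 ± 0.60, and Vav1, an exchange factor that loads Rac with GTP in blood cells, one of 2.40 ± 0.54. Fpr1, the receptor for bacterial formyl peptides, was at least 5.91-fold higher in STZ, since no sham sample had it well above background.

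Of 7 tested genes of other NADPH oxidases and their partners, none was called at an unadjusted p under 0.05 in either direction, and the median log2 change was 0.17. The median was −0.03 with normexp and quantile scaling, where 1 gene was called higher and 1 lower, and 0.02 to 0.37 with 1 array left out. Without the STZ array of replicates 1 and 3, 1 gene was called higher, and without that of replicates 2 and 4, 1 was called lower. Duox1, an epithelial oxidase that makes hydrogen peroxide, was at 1.59 and 0.92 on the STZ arrays and at 0.82 and −0.35 on the sham arrays. The groups lay side by side without overlap, and the change was 0.79 ± 0.59. Noxa1, the activator of Nox1, had a change of −1.35 ± 0.66, and Nox3, the oxidase of the inner ear, one of 0.78 ± 0.65.

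Of 5 tested genes that supply the oxidase with counter-ions or NADPH, 1 was higher at an unadjusted p under 0.05 and none lower, with a median of −0.17. The median was 0.08 with normexp and quantile scaling, 0.11 without the STZ array of replicates 2 and 4 and −0.41 without that of replicates 1 and 3, where 1 gene was also called lower. The higher gene was Kcnn4, a calcium-activated potassium channel, at −0.68 and −0.92 on the STZ arrays and at −3.79 and −4.01 on the sham arrays, a change of 2.88 ± 0.42. Tkt, an enzyme of the pentose phosphate pathway, had a change of 0.12 ± 0.42. Clcn3, a chloride-proton exchanger, had one of −1.04 ± 0.59. Epx, the eosinophil peroxidase, was too dim to be tested.

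Genes of TGF-beta and hypoxia signalling, which are known to raise Nox4 in fibroblasts and smooth muscle, had a median change of 0.23 (−0.17 without the STZ array of replicates 1 and 3). Of 11 tested genes, 1 was higher at an unadjusted p under 0.05 and none lower, a share near the 7.32% of all tested probes. No gene was called when either sham array was left out. The gene called with all arrays was Fn1, the matrix protein fibronectin, with a change of 1.12 ± 0.52. Smad2, a messenger of the TGF-beta receptor, had a change of −1.17 ± 0.48, and Tgfb1, the ligand, one of 0.68 ± 0.61.

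**Figure D3:**
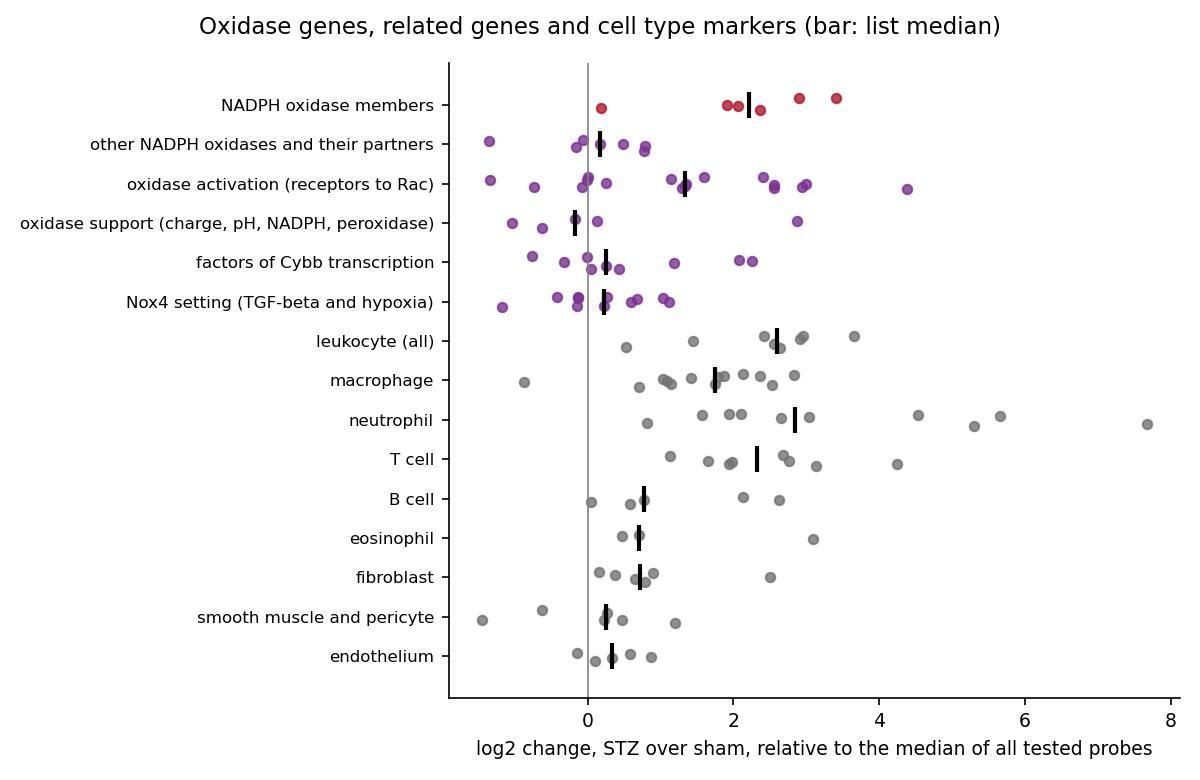
Log2 change, STZ over sham, with the median tested probe at 0 (x axis) of each tested gene (points) in the oxidase group, in 5 related gene lists and in 9 lists of cell type markers; black bars are list medians. The oxidase group has a median of 2.22, beside 1.75 for the macrophage, 2.33 for the T cell, 2.60 for the leukocyte and 2.84 for the neutrophil list, and the other NADPH oxidases lie around 0.

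Markers of the cells that carry this enzyme were higher in STZ skin as well. At the same unadjusted threshold, 7.32% of all tested probes were called higher and 3.53% lower, and lists of 3 to 6 tested genes are too short for 1 call to be read against these shares. The general leukocyte list had 7 of 8 tested genes higher at an unadjusted p under 0.05, with a median log2 change of 2.60. Its summed level was 7.85 to 8.12 in STZ and 6.03 to 6.86 in sham (log2 of the summed intensity over the 75th percentile). Arpc1b, the tested gene not called (0.52 ± 0.50), was the largest part of that sum on every array. It was at 6.68 and 7.11 on the STZ arrays and at 6.53 and 5.77 on the sham arrays. Cd53, a membrane protein of leukocytes, had a change of 3.65 ± 0.60, Fcer1g and Tyrobp, adaptors of myeloid receptors, changes of 2.96 ± 0.49 and 2.91 ± 0.55, and Ptprc, the leukocyte antigen CD45, one of 2.64 ± 0.59. The macrophage list had 10 of 13 higher and none lower, a median of 1.75 and a summed level of 8.37 to 8.88 in STZ and 6.25 to 6.98 in sham. Cd68, a lysosomal protein of macrophages, had a change of 2.53 ± 0.50, Cd163, a haemoglobin scavenger receptor, one of 2.13 ± 0.43, Adgre1 (F4/80) one of 1.79 ± 0.41 and Lyz2, lysozyme, one of 2.84 ± 0.65. On the STZ arrays Lyz2 was the largest part of the macrophage sum, at 7.18 and 7.88. Marco was well above background in no sample. The count of higher macrophage genes was 6 without the sham array of replicates 1 and 3 and 5 without that of replicates 2 and 4. Omission of the sham array of replicates 2 and 4 gave a macrophage median of 1.20, a leukocyte median of 2.01 and 4 higher T cell genes.

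The neutrophil list had 8 of 10 tested genes higher, a median of 2.84 and a summed level of 6.18 to 6.23 in STZ and 0.67 to 0.90 in sham. Mmp9, a gelatinase, and S100a8, a subunit of calprotectin, had the smallest p of the list and changes of 7.67 ± 0.54 and 5.30 ± 0.42, before Camp (3.04 ± 0.42), the gene of cathelicidin, and Lcn2 (2.65 ± 0.48), which binds bacterial iron carriers. Prtn3 and Ctsg, granule proteases made while neutrophils mature, were too dim to be tested. T cell markers, of cells that are not phagocytes, also stood higher, with 7 of 8 tested genes at an unadjusted p under 0.05. Their median was 2.33, and their summed level was 3.23 to 3.90 in STZ and 0.60 to 0.88 in sham. Cd8a had a change of 4.24 ± 0.42, Cd3e one of 2.76 ± 0.60 and Cd2 one of 2.68 ± 0.52. Trat1, at 3.13 ± 0.70, stood well above background in 2 sham samples.

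B cells, which also carry the oxidase, had a list with 2 of 5 tested genes higher, a median of 0.77 (0.28 with normexp and quantile scaling) and a summed level of −1.21 to −0.31 in STZ and −1.67 to −1.36 in sham. No B cell gene was called after normexp with quantile normalization. Cd79b, part of the B cell receptor complex, stood at least 3.34-fold higher in STZ, with no sham sample well above background. The changes of Cd22 and Pax5 were 0.59 ± 0.50 and 0.77 ± 0.71. In the eosinophil list, 1 of 3 tested genes was higher, and the summed level was 0.58 to 0.68 in STZ and −2.47 to −2.04 in sham. That gene was Siglec5 (3.09 ± 0.49), which made up most of the STZ sum, at 0.53 and 0.52 on the STZ arrays. Prg2, the major basic protein, had a change of 0.48 ± 0.72 and Ccr3 one of 0.71 ± 0.63, both with overlap between the groups. Il5ra was well above background in no sample. The part of any of these cell types in the oxidase changes was not tested.

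The markers of cells that can carry Nox4 had list medians of 0.25 to 0.72. The fibroblast list had 1 of 6 tested genes higher at an unadjusted p under 0.05 and a median of 0.72. Lum, the proteoglycan lumican, had a change of 2.50 ± 0.66, and Pdgfra, Dcn and Fbln1 had changes of 0.65 to 0.89. The smooth muscle and pericyte list had 1 of 6 higher and a median of 0.25, with changes of 1.20 ± 0.54 for Pdgfrb, −1.45 ± 0.54 for Cspg4, 0.48 ± 0.46 for Des and 0.22 ± 0.44 for Rgs5. The endothelium list had 1 of 5 higher and a median of 0.33, with 0.87 ± 0.42 for the adhesion gene Pecam1, 0.58 ± 0.70 for Tek, 0.33 ± 0.52 for Emcn and 0.10 ± 0.50 for Cldn5. The summed level was 8.77 to 9.79 in STZ and 8.50 to 8.66 in sham for fibroblasts, 6.18 to 6.59 and 5.56 to 6.28 for smooth muscle and pericytes, and 3.14 to 4.03 and 2.76 to 3.18 for endothelium. Each single call of these 3 lists was lost without the sham array of replicates 2 and 4. The endothelium call was lost with any 1 array left out, and that of smooth muscle and pericytes also when either STZ array was left out. The fibroblast list had 3 genes called higher with normexp and quantile scaling and also without the STZ array of replicates 1 and 3. Over these settings the median ran between −0.04 and 0.54 for smooth muscle and pericytes and between 0.06 and 0.69 for endothelium.

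The oxidase genes were then set against the mean log2 level of the leukocyte markers of the same array, which was 4.09 and 4.04 on the STZ arrays and 1.97 and 0.92 on the sham arrays. Relative to it, the change was 1.01 for Cybb and 0.51 for Ncf4, without overlap between the groups. It was −0.02 for Ncf1 and −0.48 for Cyba, with overlap, and −0.33 for Rac2, without overlap. Relative to the macrophage markers all 5 phagocyte genes were higher in STZ, by 0.38 (Cyba) to 1.88 (Cybb), and without overlap. Relative to the neutrophil markers all 5 were lower, from −0.13 (Cybb) to −1.62 (Cyba), with overlap for Cybb and Ncf4. Nox4 was lower in STZ relative to each of the 3, at −2.20, −1.33 and −3.34 for leukocyte, macrophage and neutrophil markers, with overlap for the macrophage markers. These values show unequal change within arrays and carry no test, since 2 arrays against 2 cannot reach a small exact p. The genes share the subtracted marker mean, so they are not separate comparisons. The share of all tested probes without overlap on these scales was not computed. Before the subtraction, 26.8% of tested probes had every STZ array above every sham array and 17.8% every STZ array below.

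**Figure D4:**
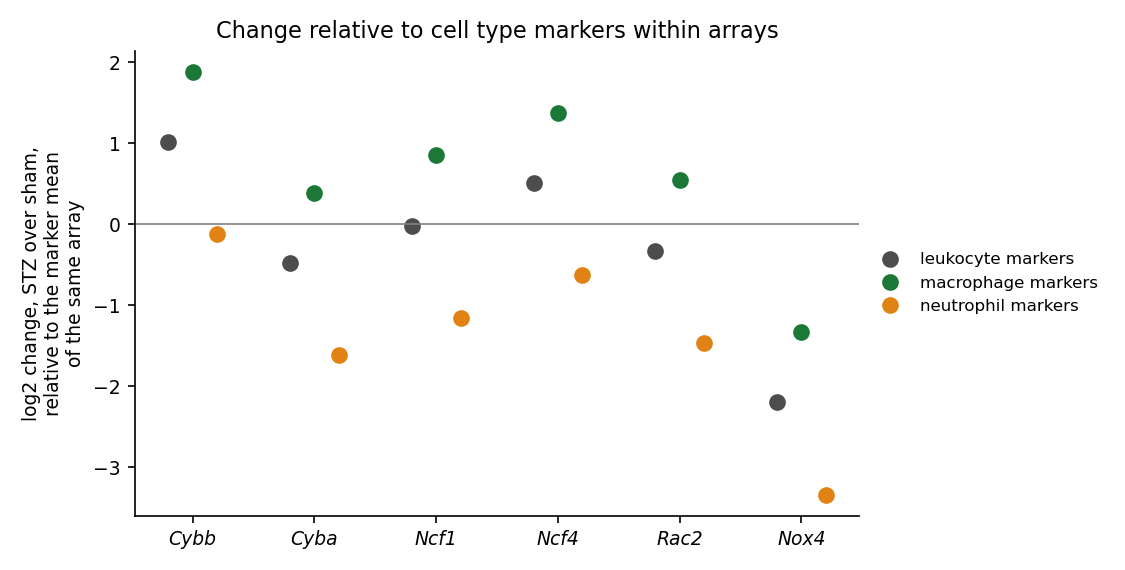
Log2 change, STZ over sham, of each oxidase gene after subtraction of the mean log2 level of leukocyte, macrophage or neutrophil markers on the same array (y axis; 1 point per gene and marker list, from 2 STZ and 2 sham arrays). Cybb lies at 1.01, 1.88 and −0.13 and Nox4 at −2.20, −1.33 and −3.34 against the 3 lists; the order of the genes is the same for each list by construction, and the lists differ only in where 0 falls.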

How the data were processed

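Full-thickness rat skin RNA carried Cy3 and was read on Agilent arrays in 1 colour, per the labels' protocols. As deposited, a spot's main intensity is the processed signal of the scanner software, background-subtracted and not normalized between arrays, and the software was Feature Extraction, version 11.0.1.1 in the file headers and 11.0.0.1 in the submitters' processing notes. The deposited median spot and background intensities are uncorrected. The flags are other values, 0 or 1 per spot, per the file headers.

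On the log2 scale, the 75th percentile of 42136 noncontrol spots was subtracted, and outlier-flagged spots were left out. Spots of a probe and the 2 scans of an array were averaged. Of 24684 probes, the 21529 that at least 4 of 8 samples showed well above background were fitted with limma 3.58.1 (lmFit, eBayes, two-sided) under R 4.3.3 and adjusted together by Benjamini-Hochberg. The fit was tested on simulated data. Each p belongs to the change before the shift of the median probe was subtracted. "At least" folds set each sham array at the dim probe's signal or the lowest signal well above background, whichever is higher.

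Probes were named by accession without version through a RefSeq table of the assembly GRCr8, which held 14237 of 15286 coding accessions. The older build rn4 is named for these arrays, so only promoter coordinates, from GRCr8, are given. A gene with several probes is represented by its brightest, and each oxidase gene had 1. The genes, lists and motifs were chosen with earlier results of these data known. Named genes are the 6 oxidase genes, Rac1, the 4 smallest p of each list and the 5 nearest profiles to Cybb and Nox4, and a few genes of that rule are not reported here. Alternatives were other scalings, background correction, filters, scans, weights, blocks and left-out arrays, and the number of arrays limits all precision. Figures were drawn with matplotlib 3.10.9.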

Additional observations from a re-analysis of the deposited data

How the results depend on the processing

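Across 15 alternatives the changes of Cybb, Cyba, Ncf1, Ncf4 and Rac2 kept their direction, and no oxidase gene passed after adjustment in any of them. Nox4 reversed, to −0.65 without sham replicates 1 and 3, and its range with 1 array left out was −0.65 to 1.03. Of all probes, 0 higher and 0 lower passed after adjustment (1575 and 761 at an unadjusted p under 0.05, limma). With each array centred on its median, 62 higher and 62 lower passed. With 1 array left out, 0 to 15 higher and 0 to 33 lower passed, and 677 to 5382 higher and 305 to 1093 lower at an unadjusted p. The most higher calls came without STZ replicates 1 and 3 (5382) and the fewest without sham replicates 2 and 4 (677). Lower calls at an unadjusted p were 1152 after quantile normalization and 1346 after normexp with quantile normalization. The cause of these moves was not tested.

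With the replicate number as a block, no adjusted call was made, with 1582 higher and 590 lower at an unadjusted p, and the change of Cybb stayed at 3.40. The labels give the numbers no meaning, and deviations of same-numbered arrays correlated at −0.20. A crossed pairing, added after the data were seen, gave 2083 higher and 763 lower at an unadjusted p. All 4 arrays lay in the same scans, so no slide block could be fitted, and each oxidase gene had 1 probe, so averaging of probes changes nothing. Ncf4 lies nearest to background in sham skin.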

Other observations

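Beside the oxidase genes, hair, fat and epidermal lists gave the setting of the tissue. All 9 tested hair genes (shaft and inner root sheath) were lower in STZ at an unadjusted p under 0.05 (limma), with a median log2 change of −6.35, and the inner root sheath keratins Krt28 and Krt72 had changes of −8.87 ± 0.82 and −9.09 ± 0.98. The hair matrix factor Msx2 had one of −3.49 ± 0.45 and the hair keratin Krt85 one of −6.15 ± 0.98. Without the STZ array of replicates 1 and 3 the median was −8.90. Of 6 tested adipocyte genes, 3 were lower, with a median of −1.85: Cidec, a lipid droplet protein (−4.46 ± 0.51), Adipoq, adiponectin (−3.04 ± 0.66), and Lipe, a lipase (−2.39 ± 0.51), while Cfd had a change of −1.31 ± 0.54. Of the 3 tested keratinocyte genes, Ivl, an envelope protein, was lower (−1.89 ± 0.42), a call lost when either sham array was left out, and Krt1 and Krt14 had changes of 1.33 ± 0.72 and 0.74 ± 0.65. No gene of these lists passed after adjustment.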
